A study of Caenorhabditis elegans and Caenorhabditis briggsae and Caenorhabditis remanei with 48 samples.

Results

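Translation in C. briggsae larvae held in L1 diapause was described by setting the ribosome-protected fragments (RPFs) of each coding sequence against its mRNA. Of 20908 coding sequences in the C. briggsae mRNA table, and 103767 in the mRNA tables of all 4 species of the series, 10822 formed the set described here. They are the coding sequences with a mean of at least 50 normalized mRNA reads in diapause and a value in the RPF table. Of 10859 at or above that mRNA level, 34 had no RPF value. CBP24772, CBP31812 and CBP22608 were left out because of their extreme RPF signal. Translation efficiency (TE) is log2(RPF/mRNA), with 1 added to each value, less its median over the 10822 coding sequences. A TE of 1 thus lies 2-fold above the median coding sequence, and TE carries no information on the total rate of protein synthesis.

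The series compared 4 Caenorhabditis species in 48 libraries, with 3 libraries for each combination of species, state and assay. The diapause group was wild-type strain AF16 hatched without food and starved for 24 h. The developing group was the same strain starved for 24 h and then fed for 3 h with the bacterial strain E. coli HB101. Each sample was a pool of whole larvae, so that a change in some cells and a change in all cells cannot be told apart, and libraries with different batch numbers in the labels were taken as replicates. Per the study's methods, the larvae of both states came from the same batches, of which a part was fed.

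Nematode larvae that hatch without food stop development in the first larval stage and resume it within hours of feeding. Ribosome profiling sequences the short stretches of mRNA that ribosomes cover, so that the number of fragments from a coding sequence depends on how much of its mRNA is present and on how densely ribosomes occupy it. In fasting animals, low insulin signalling leaves the FOXO transcription factor DAF-16 active, and autophagy and molecular chaperones are known to maintain the arrested larva. The ratio of RPF to mRNA separates the second of these terms from the first.

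The tables hold group means only, and whole reads of each library were recovered from these means (99.95% of coding sequences for diapause RPF, 99.6% for diapause mRNA). Because library identity is lost in a mean, the 3 libraries of a group are called a, b and c by falling size factor, and library a of one assay need not come from the same larvae as library a of the other, so that libraries were not paired in the tests. Over the set, recovered RPF reads numbered 7046763, 2256365 and 1726270 and mRNA reads 10274854, 6638955 and 6774528 in libraries a, b and c. RPF depth was limited by the 3 left-out coding sequences, which took 65.5% of the RPF signal and 2.67% of the mRNA signal. The 10822 coding sequences shared 32.6% of the RPF signal and 96.1% of the mRNA signal. All 6 diapause libraries could be read for 10737 of them. For most of the other 85, mRNA means over 20000 could not be split into reads.

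TE varied widely among coding sequences in diapause. Its SD was 1.33 and its interquartile range 1.42 on the log2 scale, with a 5th percentile of -2.80 and a 95th of 1.37. TE was more than 2-fold above the median for 1409 coding sequences (13.0%) and more than 2-fold below it for 2252 (20.8%). The low side reached further, with 939 coding sequences more than 4-fold below the median and 58 more than 4-fold above it. Centring on the ratio of summed signal, in place of the median, moved every TE up by 0.47 and turned this split round, to 3070 above and 1453 below. The counts therefore describe positions relative to the median coding sequence only. Across coding sequences, which are not independent replicates, log2 RPF and log2 mRNA correlated with a Pearson r of 0.72 and a Spearman rho of 0.774.

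**Figure D1:**
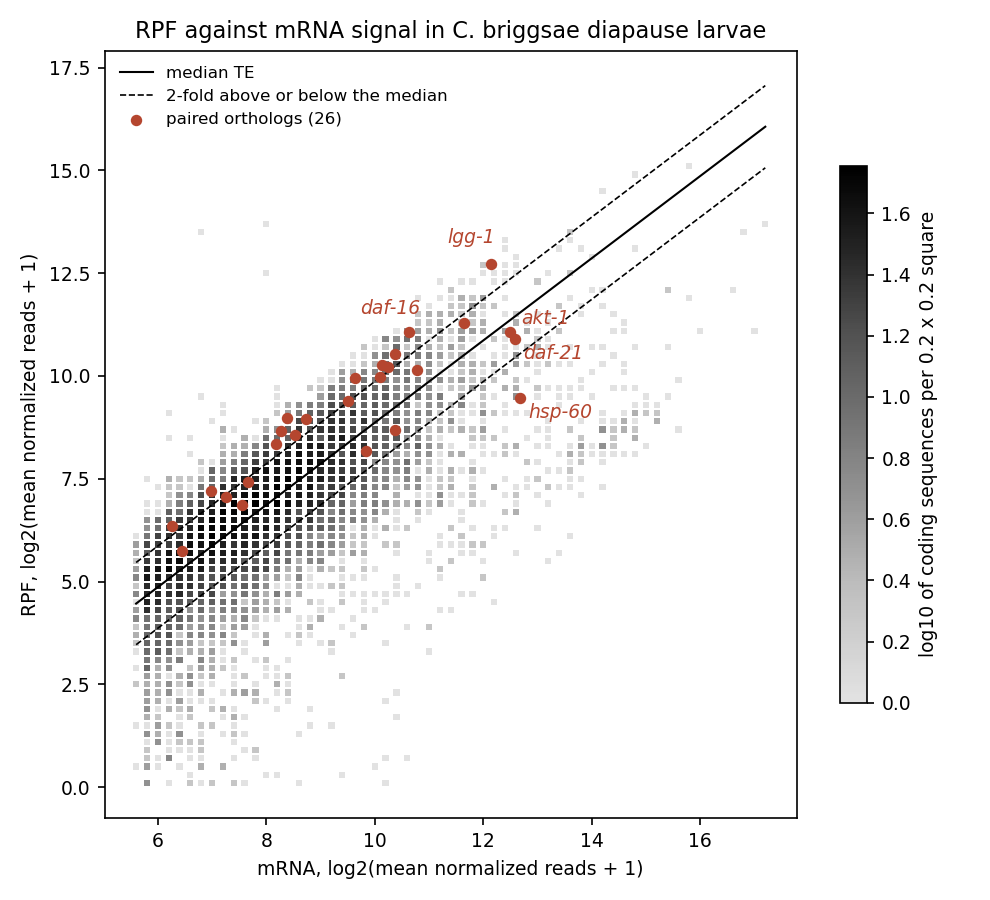
RPF signal (vertical axis) against mRNA signal (horizontal axis) of the 10822 coding sequences in diapause, both as log2 of the mean normalized reads plus 1; grey squares are shaded by the number of coding sequences. The solid line is the median TE, dashed lines are 2-fold above and below it, and red points are the 26 orthologs described in the text; at the right, coding sequences with the most mRNA reads fall well below the dashed lines.

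The spread was larger than the error between libraries. The SD of log2 normalized reads between the 3 libraries of a group had a median of 0.23 for RPF and 0.16 for mRNA, and the error variance of TE amounted to 4.1% of its variance over 10737 coding sequences. Pearson r over coding sequences was 0.92 to 0.95 between RPF libraries and 0.97 to 0.98 between mRNA libraries. Between an RPF and an mRNA library it was 0.66 to 0.73. RPF and mRNA libraries were then compared for each coding sequence with limma on log2(normalized reads + 1), with the median coding sequence set to 0 and p-values adjusted by the Benjamini-Hochberg method. TE was above the median for 3198 coding sequences (29.8% of those tested) and below it for 3387 (31.5%) at an adjusted p under 0.05.

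Few RPF reads stood behind many of the lowest values. Of 283 coding sequences more than 16-fold below the median, 225 were tested. These 225 had a median of 19 RPF reads summed over 3 libraries, against 450 for tested ones within 2-fold of the median. The median of 19 does not cover the untested ones. Of the 100 coding sequences with the most diapause mRNA reads, 65 were more than 16-fold below the median, but only 15 of the 100 were tested. RPF reads were 0 in all 3 libraries for 9 coding sequences, which allows up to 3 reads over the libraries, and their mRNA means lay between 53.1 and 371. These 9 are counted among the low ones, but the size of their TE depends on the value added before taking logs. At the mRNA limit of the set, the 251 coding sequences with means from 50 to 55 had a median TE of 0.13 and an SD of 1.38. The 275 just outside it, from 45 to 50, had a median of 0.07 and an SD of 1.25.

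Low TE was concentrated among the coding sequences with the most mRNA reads. These reads are not divided by length, because the tables give none, so the ranking favours long coding sequences as well as abundant mRNAs. In the lower 8 deciles of the set by mRNA reads the median TE was between -0.09 and 0.20. It was -0.25 in the 9th decile and -0.92 in the highest, where 516 of 1083 coding sequences (47.6%) lay more than 2-fold below the median, against 20.8% of the whole set.

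The 100 coding sequences with the most mRNA reads in diapause, a number chosen after the values were seen, had a median TE of -4.50. Of these, 92 were more than 2-fold below the median and 3 more than 2-fold above it. They took 13.1% of the RPF signal of the set and 32.3% of its mRNA signal. Because mRNA is the denominator of TE, the ranking was repeated with mRNA reads of the developing larvae, which do not enter diapause TE. The 100 highest by that ranking, 83 of them shared with the first, had a median diapause TE of -4.52, with 91 more than 2-fold below the median. In the RPF libraries taken singly, the median was -4.45, -4.27 and -4.86 (98 of the 100 could be read). The most-read mRNAs of these larvae thus carried few RPFs for their number in every diapause library.

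The same 100 coding sequences did not stand apart in this way after feeding. Their median TE was -4.52 in diapause larvae and -0.43 in developing larvae, and 91 in diapause and 9 in developing larvae were more than 2-fold below the median of the state, against 20.8% of all coding sequences in diapause and 15.4% in developing larvae. By RPF library the median averaged -4.53 ± 0.30 in diapause and -0.49 ± 0.13 in developing larvae (SD, n = 3 each, groups not overlapping). Of the 100, 98 could be read in diapause and 91 in developing larvae. Each RPF library was set against the mRNA mean of its state, so the SD holds no variation between mRNA libraries. The exact permutation test (two-sided, unpaired) gave p = 0.10, which is the smallest that 3 libraries against 3 allow. Larvae of both states came from the same batches. Which libraries share a batch is lost in the means, so the test did not use this pairing. RPF signal of these coding sequences was lower in diapause than in developing larvae, with a median difference of -4.48 on the log2 scale, and the median difference in mRNA signal was -0.40. Only 16 of the 100 had reads recovered in all 12 libraries, and TE was lower in diapause than in developing larvae by limma for 15 of these 16 (16.1% of all coding sequences tested), with a median difference of -4.004. Of the 100 highest by diapause mRNA, 11 could be fitted and 7 were lower, with a median difference of -1.49.

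**Figure D2:**
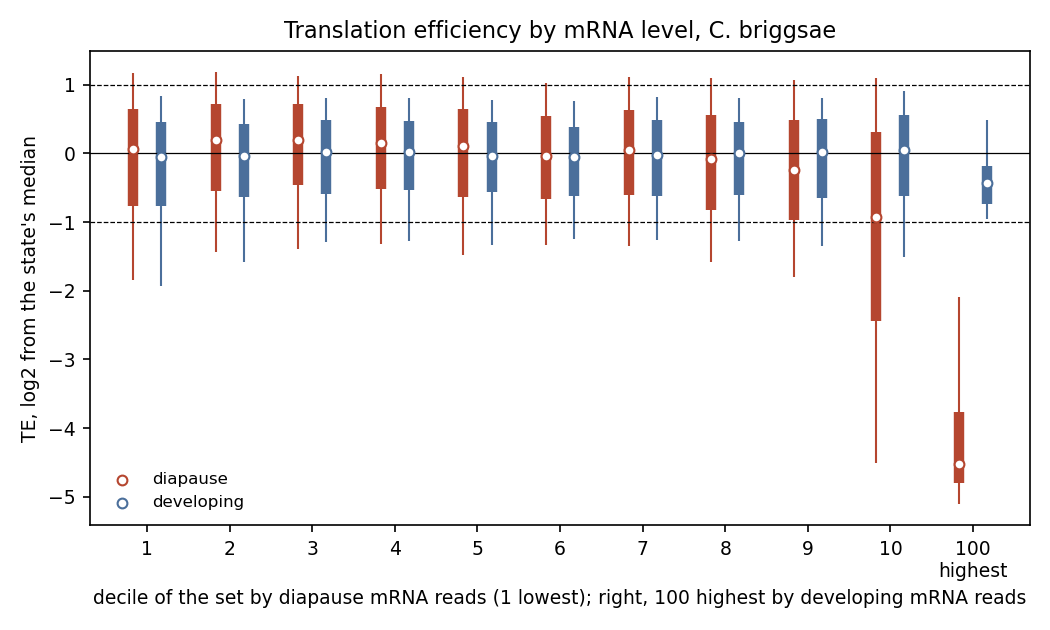
TE (vertical axis, log2 from the median of the state) in diapause (red) and developing larvae (blue) for deciles of the set by diapause mRNA reads, from 1 (lowest) to 10 (highest), and at the right for the 100 highest by developing mRNA reads. White points are medians, thick bars the middle 50% and thin bars the 10th to 90th percentile of coding sequences; the median of the 100 highest is -4.52 in diapause and -0.43 in developing larvae.

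Over the whole set, the 283 coding sequences more than 16-fold below the median, 65 of them among the 100 with the most diapause mRNA reads, took 1.28% of the RPF signal and 24.7% of the mRNA signal of the set. In the distribution of diapause TE they formed a shoulder, and 0.61% of coding sequences fell between -4.75 and -4.5, against 0.38% between -4.25 and -4. The same bins held 0.15% and 0.16% of coding sequences in developing larvae. Of the 257 that also reached the mRNA limit in developing larvae, 146 were more than 2-fold below the median there too, against 15.4% of all coding sequences in developing larvae, and the median TE of the 257 there was -2.11. The identifiers in the tables are not paired with gene names for these coding sequences, so their functions are not given. At the other end, 43 of the 49 coding sequences more than 4-fold above the median in diapause with a value in developing larvae were more than 2-fold above the median there too, against 5.69% of all.

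Diapause TE was spread more widely than TE in developing larvae of the species. Over coding sequences at or above the mRNA limit of each state, the SD was 1.33 in diapause (10822 coding sequences) and 1.07 in developing larvae (10605). The interquartile range was 1.42 in diapause and 1.09 in developing larvae. With each RPF library set against the mRNA mean of its state, over coding sequences at the limit in both states, the SD averaged 1.41 ± 0.08 in diapause and 1.15 ± 0.04 in developing larvae (SD, n = 3 each). The groups did not overlap (exact permutation test, two-sided, unpaired, p = 0.10, the smallest possible for it). Log2 RPF and log2 mRNA correlated with a Pearson r of 0.72 in diapause and 0.854 in developing larvae.

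**Figure D3:**
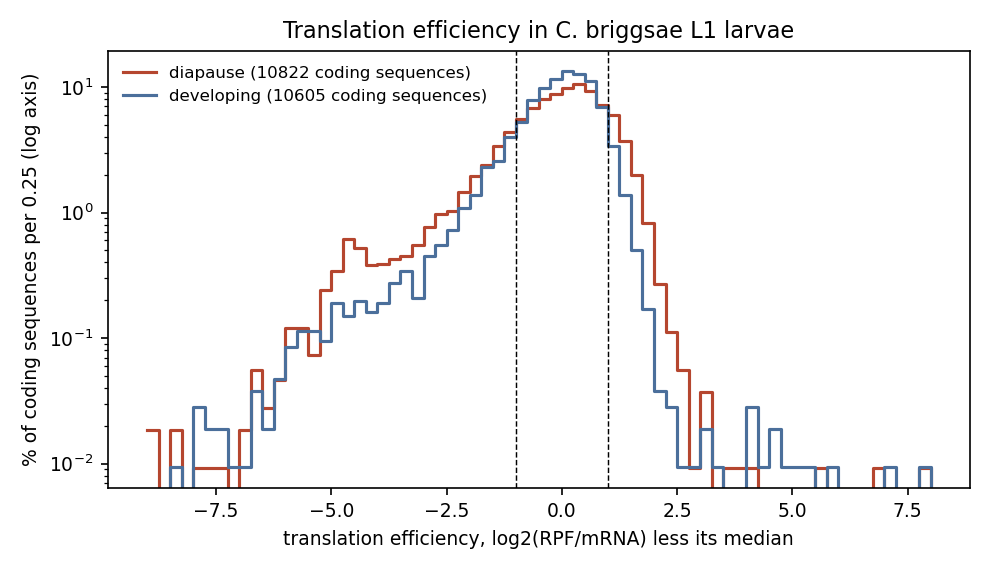
Share of coding sequences (vertical axis, log scale) by TE (horizontal axis, log2 from the median of the state, bins of 0.25) in diapause (red) and developing larvae (blue). Dashed lines are 2-fold below and above the median; between -5 and -1 the diapause curve lies above the developing one, and 283 coding sequences in diapause and 138 in developing larvae are more than 16-fold below the median.

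In a single limma fit of the 12 C. briggsae libraries, TE differed between the states for 2307 of 10729 coding sequences (21.5%). It was higher in diapause than in developing larvae for 577 (5.38%) and lower for 1730 (16.1%). The median difference over the coding sequences fitted was set to 0, so both counts are relative to it. No other centring was tried for this comparison. The set was chosen by mRNA reads in diapause alone. Coding sequences that reached the mRNA limit only in developing larvae were thus not tested, while those that reached it only in diapause could be. The count of 577 was 341 without diapause mRNA library a, 368 without diapause mRNA library b and 374 without developing mRNA library c. Among the 1730, the median log2 difference between diapause and developing larvae was -1.39 in RPF signal and 0.03 in mRNA signal. Among the 577, the median RPF difference was 1.26 and the median mRNA difference 0.31. Over all coding sequences fitted, the medians were 0.03 for RPF and 0.02 for mRNA. TE contains both quantities, so these medians describe the calls and do not test them. More than 4-fold differences in TE were found for 433 of the 1730 and for 16 of the 577.

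In the other species, TE in diapause was computed with the same formula and mRNA limit, but no coding sequence was left out for its RPF signal. The SD of TE was 1.33 in C. briggsae, 1.05 in C. brenneri, 1.06 in C. elegans and 1.30 in C. remanei. The 100 coding sequences with the most diapause mRNA reads had a median TE of -4.50 in C. briggsae, -2.11 in C. brenneri, -2.32 in C. elegans and -2.53 in C. remanei. These are single values from group means of separately normalized tables, and the differences between species were not tested.

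Of the set, 26 coding sequences were paired with C. elegans genes in a curated table of the study that concern fasting, diapause and dauer formation, and 25 of them are named here. By its C. elegans protein, the gene printed there as daf-2 is daf-21 in another table of the study, and is called so. The one printed as daf-3 is listed among iron-sulfur proteins, which does not match that name, and is given as CBP32062. The study selected these genes for differential RPF levels between the states on these samples, so their direction is not independent evidence. Roles given here are those known from C. elegans. Their median TE was 1.07, against 0 over the set, and 19 were above the median by limma, 3 below and 4 not called, beside the 29.8% and 31.5% of all coding sequences.

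**Figure D4:**
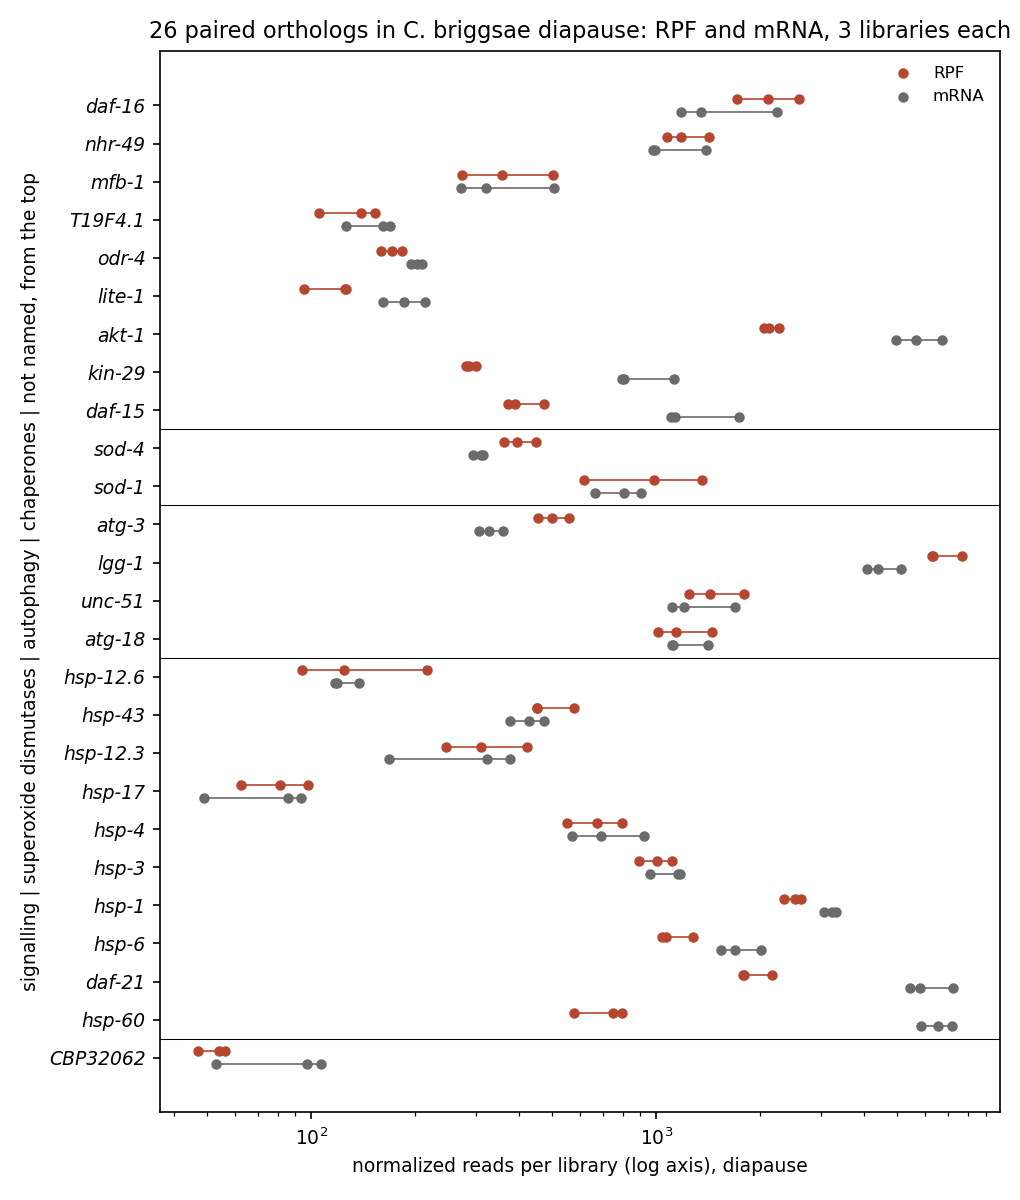
Normalized reads (horizontal axis, log scale) of the 26 orthologs in each of the 3 RPF (red, upper) and 3 mRNA (grey, lower) libraries of diapause larvae, grouped by horizontal lines into signalling genes, superoxide dismutases, autophagy genes, chaperones and CBP32062. All RPF points lie left of all mRNA points for hsp-60, daf-21, akt-1, kin-29, daf-15, lite-1, hsp-6, hsp-1 and odr-4. Of these, hsp-6, hsp-1, odr-4 and lite-1 are above the median TE, because the median coding sequence itself has fewer RPF than mRNA reads. The TE of lite-1 did not pass the test. For lgg-1, atg-3 and sod-4 all RPF points lie right of all mRNA points. Reads of different genes are not divided by length.

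Of 9 signalling genes, 5 were above the median in diapause, 1 below it and 3 not called. daf-16, the FOXO transcription factor that insulin signalling holds out of the nucleus, had 2108, 1713 and 2591 normalized RPF reads in diapause libraries a, b and c, and 1349, 1179 and 2244 normalized mRNA reads. Its TE of 1.61 ± 0.27 (limma estimate and SE, n = 3 and 3) was above the median (adjusted p = 0.0013), and its mean TE exceeded that of 97.3% of the set. akt-1, a kinase between the insulin receptor and DAF-16, had 2260.5, 2046 and 2126 RPF reads and 5662, 4946 and 6711 mRNA reads, and its TE of -0.28 ± 0.18 did not pass the test (adjusted p = 0.21).

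Between the states, no signalling gene of the 9 passed with all 12 libraries. For daf-16 the difference in TE was 0.63 ± 0.30 (limma, adjusted p = 0.16) and it passed without diapause mRNA library c (0.91, adjusted p = 0.012), as did that of kin-29 (0.50, adjusted p = 0.016). For akt-1 the difference was 0.22 ± 0.21 (adjusted p = 0.49). In daf-16 and akt-1, RPF and mRNA reads were higher in every diapause library than in any developing one.

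Of the other signalling genes, nhr-49, a nuclear hormone receptor of fat metabolism, had a TE of 1.28 ± 0.18 (adjusted p = 0.00063) from 1179, 1072 and 1419 RPF reads and 975, 989 and 1390.1 mRNA reads. mfb-1, an F-box protein of a ubiquitin ligase, odr-4, needed to deliver odorant receptors to sensory cilia, and T19F4.1 also passed above the median, with TE of 1.19, 0.91 and 0.94. kin-29, a salt-inducible kinase of chemosensory neurons, was below the median at -0.49 ± 0.16 (adjusted p = 0.026, and 0.080 without RPF library a). Its mRNA reads were 808, 798 and 1126, above its 281, 301 and 286 RPF reads. daf-15, the Raptor subunit of the nutrient-sensing TOR complex, had a TE of -0.52 ± 0.20 (adjusted p = 0.052). lite-1, a light receptor of neurons, had 0.45 ± 0.17 (adjusted p = 0.05). Neither passed with all libraries. CBP32062 had a TE of 0.50 ± 0.28 and did not pass (adjusted p = 0.15).

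All 4 autophagy genes were above the median in diapause, and by mean TE each was more than 2-fold above it. lgg-1, a ubiquitin-like protein attached to autophagosome membranes, had 6306, 6325 and 7668 RPF reads and 4079.6, 4399.6 and 5115 mRNA reads, with a TE of 1.72 ± 0.20 (adjusted p = 0.00025). atg-3, the enzyme that joins LGG-1 to lipid, had 455, 499.7 and 558 RPF reads and 327, 306 and 359 mRNA reads, with a TE of 1.75 ± 0.13 (adjusted p = 3e-05). In both genes every RPF library exceeded every mRNA library, whereas RPF over mRNA was -1.14 on the log2 scale for the median coding sequence. unc-51, the kinase that starts autophagy, had a TE of 1.31 ± 0.21 (adjusted p = 0.001), and atg-18, a lipid-binding protein of the forming membrane, 1.12 ± 0.18 (adjusted p = 0.001).

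lgg-1 was the autophagy gene whose TE differed between the states with all 12 libraries. Its RPF reads were 6306, 6325 and 7668 in diapause and 667, 627 and 523 in developing larvae, and its mRNA reads 4079.6, 4399.6 and 5115 in diapause and 1079.5, 924 and 1001 in developing larvae. Both were higher in diapause without overlap, and TE was higher by 1.22 ± 0.20 (adjusted p = 0.00058). The TE differences of unc-51, atg-3 and atg-18 were 0.62 ± 0.23, 0.50 ± 0.17 and 0.58 ± 0.24, which did not pass (adjusted p = 0.073, 0.055 and 0.11). With any 1 of the 12 libraries left out, each of these 3 passed in some limma fits and not in others. Adjusted p-values ran from 0.0097 to 0.17 for unc-51, 0.044 to 0.13 for atg-3 and 0.031 to 0.21 for atg-18.

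Both superoxide dismutases, enzymes that remove superoxide, were above the median in diapause. sod-4, the extracellular enzyme, had 396, 361 and 448 RPF reads and 294, 315 and 311 mRNA reads, and a TE of 1.53 ± 0.12 (adjusted p = 4.7e-05). In developing larvae it had 95.5, 68.7 and 66.8 RPF reads and 111, 118 and 101 mRNA reads, and TE was higher in diapause than in developing larvae by 0.82 ± 0.21 (adjusted p = 0.014). sod-1, the cytosolic enzyme, had a TE of 1.40 ± 0.27 (adjusted p = 0.0029), and its difference between the states of 0.61 ± 0.35 did not pass (adjusted p = 0.25, and 0.037 without diapause RPF library c).

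Of 10 chaperone genes, 8 were above the median in diapause, and hsp-60 and daf-21 were below it. hsp-60, the chaperonin of the mitochondrial matrix, had 752, 795 and 577 RPF reads and 6566, 5853 and 7183 mRNA reads. The lowest mRNA library exceeded the highest RPF library 7.37-fold, and TE was -2.07 ± 0.18 (adjusted p = 6e-05). In developing larvae hsp-60 had 5309, 5672 and 4435 RPF reads and 4897, 4501 and 3972 mRNA reads. Its RPF reads were thus lower in every diapause library while its mRNA reads were higher, and TE was lower in diapause, with a difference of -3.51 ± 0.23 (adjusted p = 1.7e-07), from -3.60 to -3.37 with any 1 library left out.

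hsp-6, the mitochondrial HSP70, had 1275, 1067 and 1039.8 RPF reads and 1696, 1545 and 2008 mRNA reads in diapause, and 5488, 5884 and 4841 RPF reads and 4648, 3835 and 4037 mRNA reads in developing larvae. Its diapause TE was 0.51 ± 0.16 (adjusted p = 0.022), a call lost without RPF library a (0.093) and without mRNA libraries a or b (0.070 and 0.088). TE was lower in diapause than in developing larvae, with a difference of -1.09 ± 0.20 (adjusted p = 0.0017), and this call held in every fit with 1 library left out. Both mitochondrial chaperones of the list had lower TE in diapause than in developing larvae.

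daf-21, the cytosolic HSP90, was also below the median. It had 1786, 2159 and 1794 RPF reads and 5417, 5796 and 7257 mRNA reads in diapause, and 14019, 14688 and 12109 RPF reads and 17376, 14323 and 12805 mRNA reads in developing larvae. The libraries of the states did not overlap in either assay, and the RPF gap was the wider one. Its diapause TE was -0.54 ± 0.19 (adjusted p = 0.037), and the call was lost without RPF library a (adjusted p = 0.14) and without mRNA libraries a, b or c (0.060, 0.078 and 0.063). TE was lower in diapause than in developing larvae, with a difference of -1.65 ± 0.26 (adjusted p = 0.00041), from -1.75 to -1.53 with any 1 of the 12 libraries left out.

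The cytosolic HSP70 gene hsp-1 had 2529, 2632 and 2342 RPF reads and 3070.1, 3327 and 3232 mRNA reads in diapause, and a TE of 0.78 ± 0.15 (adjusted p = 0.0025). The HSP70 genes of the endoplasmic reticulum, hsp-3 and hsp-4, had TE of 1.02 ± 0.15 and 1.05 ± 0.21 (adjusted p = 0.00062 and 0.003). TE differences between the states were -0.53 ± 0.23 for hsp-1, -0.46 ± 0.21 for hsp-3 and 0.04 ± 0.23 for hsp-4, none of which passed (adjusted p = 0.13, 0.13 and 0.92). These 3 genes had fewer RPF and fewer mRNA reads in every diapause library than in any developing one.

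The small heat shock protein genes hsp-12.3, hsp-12.6, hsp-17 and hsp-43 had TE of 1.36, 1.28, 1.26 and 1.35 in diapause, and all 4 passed above the median. hsp-43 had 453, 451 and 577 RPF reads in diapause and 211, 184 and 205 in developing larvae, with 427, 377 and 473 mRNA reads in diapause and 361, 352 and 282 in developing larvae. Its TE was higher in diapause by 0.84 ± 0.20 (adjusted p = 0.0082). hsp-12.6 had 125, 94.1 and 217 RPF reads and 117, 119 and 137 mRNA reads in diapause, against 1.06, 2.86 and 4.61 RPF reads and 7.90, 7.07 and 17.4 mRNA reads in developing larvae, and its TE difference of 1.67 ± 0.61 did not pass (adjusted p = 0.071). The differences of hsp-12.3 and hsp-17 were 1.19 ± 0.71 and 0.86 ± 0.31 (adjusted p = 0.27 and 0.07). Without single libraries, hsp-12.6 and hsp-17 passed in some limma fits and not in others. Adjusted p-values ran from 0.032 to 0.17 for hsp-12.6 and from 0.036 to 0.14 for hsp-17.

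**Figure D5:**
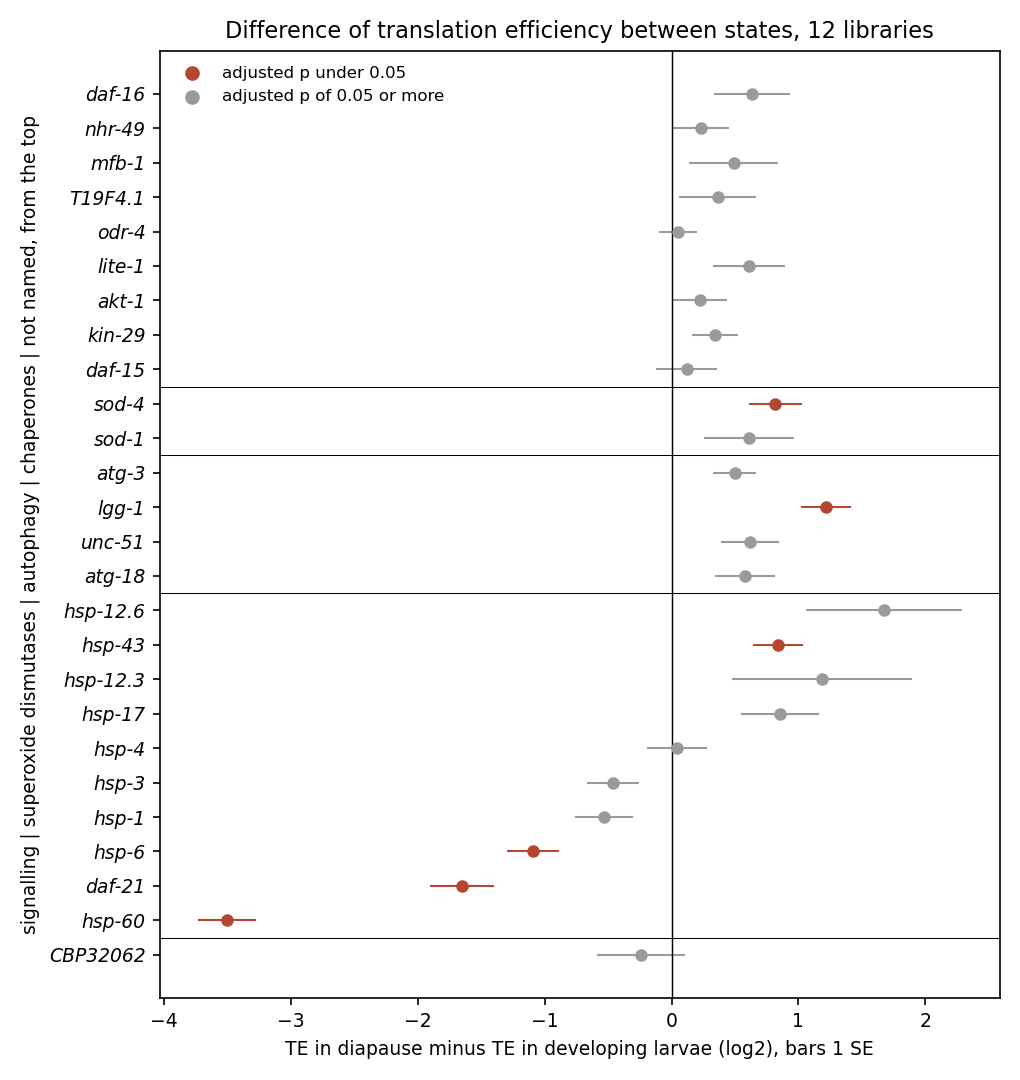
TE in diapause minus TE in developing larvae (horizontal axis, log2, limma estimate with bars of 1 SE, 12 libraries) for the 26 orthologs in the same groups. Red points passed at an adjusted p under 0.05: daf-21, hsp-6 and hsp-60 lie to the left of 0, and lgg-1, sod-4 and hsp-43 to the right.

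Over the 26 orthologs, TE was higher in diapause than in developing larvae for 3, lower for 3 and not called for 20, beside 5.38% and 16.1% of all coding sequences. Of the 20, 8 passed in 1 or more fits with a single library left out. The genes were selected for RPF changes between these states, so a TE difference is not independent of the selection.

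The C. elegans diapause libraries were read in the same way for 24 of these genes, without daf-21 and CBP32062. From group means, the TE of daf-21 in C. elegans diapause was -1.91, which was not tested. TE in C. elegans was above its own median by limma for 17 of the 24 (33.2% of all C. elegans coding sequences tested) and below it for 2 (33.5%). The study lists these genes as conserved between species in their regulation, so likeness between the species is not independent of that selection. hsp-60 was the one gene of the 24 that passed in both species with opposite signs. In C. elegans it had 869, 787 and 756 RPF reads and 436, 473 and 459.7 mRNA reads, and its TE was -2.07 ± 0.18 in C. briggsae and 1.63 ± 0.10 in C. elegans (adjusted p = 1.1e-06 in C. elegans). For akt-1, TE was -0.28 ± 0.18 in C. briggsae, which did not pass, and 1.02 ± 0.12 in C. elegans (adjusted p = 4.9e-05). For daf-16 it was 1.61 ± 0.27 in C. briggsae and 1.35 ± 0.10 in C. elegans, and for lgg-1 1.72 ± 0.20 in C. briggsae and 1.10 ± 0.14 in C. elegans. The tables of the species were normalized separately and differences between species were not tested.

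Of coding sequences with at least 50 normalized RPF reads as well, CBP28462 and CBP32052 had the highest TE in diapause, and CBP29675 and CBP14385 the lowest. The sources used here do not annotate them. CBP28462 had 3508, 9500.3 and 21172 RPF reads and 112, 99.2 and 114 mRNA reads, and a TE of 7.49 ± 0.55. CBP32052 had 5745, 14306 and 19695 RPF reads and 262, 251 and 294 mRNA reads, and a TE of 6.59 ± 0.40. Their RPF reads differed several-fold between libraries after normalization, while their mRNA reads did not. Both had high TE in developing larvae too (7.97 and 7.03).

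CBP14385 had 76.2, 87.7 and 49.8 RPF reads and 12867, 11312 and 12168 mRNA reads in diapause, with a TE of -6.28 ± 0.21 (adjusted p = 1.1e-06). In developing larvae it had 2711, 3449.8 and 2747 RPF reads and 15421, 15486 and 14709 mRNA reads. TE was lower in diapause, with a difference of -5.15 ± 0.26 (adjusted p = 2.1e-08), and the log2 difference between diapause and developing means was -5.36 for RPF and -0.33 for mRNA. CBP14385 was chosen for its low diapause TE, so neither adjusted p-value is independent of that choice. CBP29675 had 89.96, 67.4 and 0 RPF reads and 12146, 11717 and 10427 mRNA reads. With 1 library at 0, its limma TE of -8.13 ± 1.51 depended on that library and was -6.04 without it, and its difference between the states did not pass (adjusted p = 0.79).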

How the data were processed

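Larvae of C. briggsae (AF16) were profiled by the authors with mRNA-seq and ribosome profiling, in 3 biological replicates per state and assay. Reads were mapped by the authors with Bowtie 0.12.7 to coding sequences of WormBase release WS230 and, with reads of several genomic positions removed, counted per coding sequence and normalized with DESeq. The deposited signal is the mean of reads over size factor in each state, and a deposited ratio of observed to fitted variance stands beside it. All alignments to coding sequences were kept, so that a read can count for several isoforms. Columns with the authors' own fold changes and p-values were not used.

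A mean of 3 libraries is a sum of whole reads times 3 steps, which the lowest values of a column give. Each mean up to 20000 was split into the reads of 3 libraries that reproduced it to a relative 2e-14. Splits were checked with the deposited variance ratio, which they gave within 1% for 99.99% of 14287 diapause mRNA and 99.94% of 12206 diapause RPF values. No such check was made for the developing larvae or for C. elegans. On means simulated from those of diapause RPF, with the highest left out, 18749 of 18749 splits were right. RPF was compared with mRNA by limma 3.58.1 (R 4.3.3, trend), on log2(normalized reads + 1), which understates changes of low values, with Benjamini-Hochberg adjustment over all coding sequences tested. Tested on simulated reads of the diapause comparison (10737 coding sequences), the fit called 100 of 100 4-fold and 48 of 100 2-fold changes and 6 of 10537 unchanged ones. The simulation gave every coding sequence the same variation between libraries beyond counting error, and drew the libraries independently. Far fewer coding sequences were changed in it than were called in the data. It therefore does not give the rate of false calls in the real libraries.

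Members and gene lists were chosen with earlier results of these data known. Orthologs were paired for 26 coding sequences, whose log2 ratios of developing to diapause means in the study's curated table matched 1 coding sequence in both assays within 1e-05. Their names were checked by C. elegans protein in other tables of the study: 4 of the 5 found there had the same name, 1 was renamed (daf-21), and for CBP32062 the name was withdrawn because of its annotation. The other named coding sequences are the 2 highest and 2 lowest by TE among those with RPF means of at least 50, and the 3 left out. Lists planned by gene symbol (ribosomal proteins, translation factors, proteasome, histones, collagens, yolk and sperm proteins and others) were not analysed here, since identifiers are not paired with symbols. Groups follow the curated table, with daf-21 moved to the chaperones and CBP32062 set apart. The name signalling is used here for the group of insulin and dauer genes, and not all of its members are signalling proteins. Alternatives are the pseudocount, the mRNA and RPF limits, the centring, the 3 left-out sequences, noisy or identical values, scaling and each library left out in turn. The fit over both states, the block and the sets by mRNA rank were added after seeing the data.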

Additional observations from a re-analysis of the deposited data

Results flagged for a closer look

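TE differed between diapause and developing larvae, by the test of the difference in 12 libraries (limma, adjusted p under 0.05), for 7 of the 30 coding sequences described, beside 21.5% of all those tested. CBP14385 is one of 4 of the 30 chosen for extreme diapause TE, so its call is not independent of that choice. The difference was -3.51 ± 0.23 for hsp-60, -1.65 ± 0.26 for daf-21 and -1.09 ± 0.20 for hsp-6, which were lower in diapause. It was 1.22 ± 0.20 for lgg-1, 0.84 ± 0.20 for hsp-43 and 0.82 ± 0.21 for sod-4, which were higher in diapause. For CBP14385 it was -5.15 ± 0.26. Each of these 7 calls held with any 1 of the 12 libraries left out.

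The TE of hsp-60 in diapause was -2.07 in C. briggsae and 1.63 in C. elegans, both past the test within their species. The difference between the species was not tested.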

How the results depend on the processing

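The SD of TE, 1.33, was 1.16 with 10 added in place of 1 and 1.14 with an RPF limit of 50, and between 1.30 and 1.40 under the other alternatives. On recovered reads it was 1.28, and 1.28 to 1.35 without single libraries. The count of coding sequences more than 2-fold above the median, 1409, was 2521 without an mRNA limit, 816 with an RPF limit and 3070 when centred on summed signal. The count below, 2252, was 1326 with an mRNA limit of 200, 3755 without one, 1444 with an RPF limit and 1453 when centred on summed signal. The size of the set changes with each limit, from 6278 to 18573 coding sequences. The median TE of the 26 orthologs, 1.07, was 1.54 when centred on summed signal. The 3 coding sequences with the most RPF signal held 65.5% of it, and the 3 highest within the set 8.07% of its signal. The median TE of the 100 coding sequences with the most mRNA reads, -4.50, was -4.05 for the 20 highest, -3.85 for 200 and -1.81 for 500, and -4.66 to -4.35 without single RPF libraries.

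With each library left out, limma called 2633 to 3324 coding sequences above the median and 2860 to 3589 below it in diapause, and TE higher in diapause than in developing larvae for 341 to 650 and lower for 1498 to 1777. Scaling each assay by trimmed means gave 3211 above and 3402 below. Of the 26 orthologs, the diapause calls of daf-21, kin-29 and hsp-6 were lost without single libraries, daf-15 and lite-1 passed in some such fits and with that scaling, and no call changed direction. Of their differences between the states, no call was lost and 8 were gained in such fits (daf-16, kin-29, unc-51, atg-3, atg-18, sod-1, hsp-12.6 and hsp-17).

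The columns carry no replicate numbers, so a pairing of libraries can only be read from the values. Deviations of RPF libraries from their group mean correlated best with those of 1 mRNA library each (r of 0.37, 0.47 and 0.48 in diapause for a with a, b with b and c with c, and 0.40, 0.39 and 0.40 in developing larvae for a with b, b with a and c with c). With this pairing as a block, chosen after seeing the data, limma called 3541 above and 3644 below the median in diapause. TE was then higher in diapause than in developing larvae for 1095 and lower for 2057, and 9 further orthologs passed between the states (daf-16, mfb-1, unc-51, atg-3, atg-18, sod-1, hsp-3, hsp-12.3 and hsp-12.6). The pairing is a hint from the data and not part of the labels. The pairing was picked for the likeness of the same values that the fit uses, so the higher counts are not independent of that choice. Library identity, gene names, lengths and sequences limit what can be read from these tables, and RPF depth limits TE of weakly translated coding sequences.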
